A study of Mus musculus with 6 samples.

Results

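Retinal ganglion cells (RGCs), the neurons whose axons form the optic nerve, were examined at E18 and at P5 for 8 genes of cytoplasmic intermediate filaments. The genes were taken by symbol from the 24060 genes of the count table. They comprised the subunits of neuronal filaments, Nefl, Nefm, Nefh, Ina and Prph, and the filament genes of glia and progenitors, Vim, Nes and Gfap. All 8 were in the table, and the 7 other than Gfap passed the expression filter and were tested.

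The E18 group held 3 samples of embryonic C57BL/6 RGCs, numbered 1, 3 and 4, and the P5 group held 3 samples of postnatal C57BL/6 RGCs, numbered 6, 8 and 9. No transgene, injury or treatment was given for either group, and the comparison set RGCs with a high capacity for axon growth against RGCs that had lost it. The cells were immunopanned, meaning that papain-dissociated retinas were first depleted of macrophages on antibody and RGCs were then captured through the surface protein CD90 (Thy1). The labels give neither the number of animals per sample nor whether samples came from separate preparations, so p-values measure only the spread between these samples, which may be technical. The name of the count column taken as E18 replicate 1 holds the numbers 2 and 5 as well, and no source states whether preparations were pooled for it.

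Intermediate filaments are rope-like polymers that give cells mechanical strength. In the axon, neurofilaments assemble from a light (Nefl), a medium (Nefm) and a heavy subunit (Nefh) together with α-internexin (Ina) or peripherin (Prph), and their accumulation accompanies radial growth of the axon, which raises conduction velocity. Young neurons are rich in Ina, Nefh appears late as axons mature, and Vim (vimentin) and Nes (nestin) are characteristic of neural progenitors, while Gfap marks astrocytes and reactive Müller glia.

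Between 81213639 and 114512853 counts on genes were deposited per sample, and the 8 genes together took 0.266% to 0.437% of them. CPM, the share of a library's counts scaled to a common total, were computed on library sizes normalized by TMM, a scaling that trims genes with extreme changes, and 16449 genes were tested with edgeR's quasi-likelihood test and Benjamini-Hochberg adjustment over all of them. At an adjusted p under 0.05, 43.4% of the tested genes were called, 20.8% higher at E18 and 22.5% lower at E18, and in 56.1% the samples of the ages did not overlap. Log2 fold changes are E18 over P5, so a negative value is higher at P5. The RGC markers Rbpms (275.6 to 329.1 CPM over all 6 samples) and Pou4f2 (174.1 to 255.5 CPM) were present in every sample, and the summed level of 14 RGC markers was 8172 to 9372 CPM at E18 and 7602 to 7814 CPM at P5. Tubb3 (1777 to 2778 CPM) and Gap43 (1068 to 1944 CPM) were the largest parts of these sums. Single RGC markers differed in direction, with 5 of the 14 called higher at E18 and 4 lower. E18 replicates 1 and 3 had higher sums of dividing and amacrine cell markers than the other 4 samples. Summed markers of dividing cells were 348.1 and 139.7 CPM there against 66.2 to 84.0 CPM elsewhere, and those of amacrine cells were 111.4 and 219.7 CPM against 18.5 to 31.0 CPM. In bulk samples, fewer cells of a type and less RNA per cell cannot be told apart.

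Of the 7 tested genes, 5 were called, against the 43.4% of all tested genes. Ina, Vim and Nes were higher at E18, by 2.04-fold, 2.26-fold and 5.82-fold. Nefl and Nefh were higher at P5, by 1.61-fold and 3.70-fold. Nefm and Prph did not pass the test. The median log2 fold change was -0.34 over the 5 neuronal subunits and 1.86 over Vim and Nes, beside 0.0047 over all tested genes. Each of the 5 calls held in all 6 fits that left out 1 sample and in the 8 other planned settings. With E18 replicate 4 as the lone E18 sample against the 3 P5 samples, chosen after the markers of other cells were seen, 3 of the 7 were called, namely Nefh, Ina and Vim, beside 9.48% of the genes tested in that fit.

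**Figure D1:**
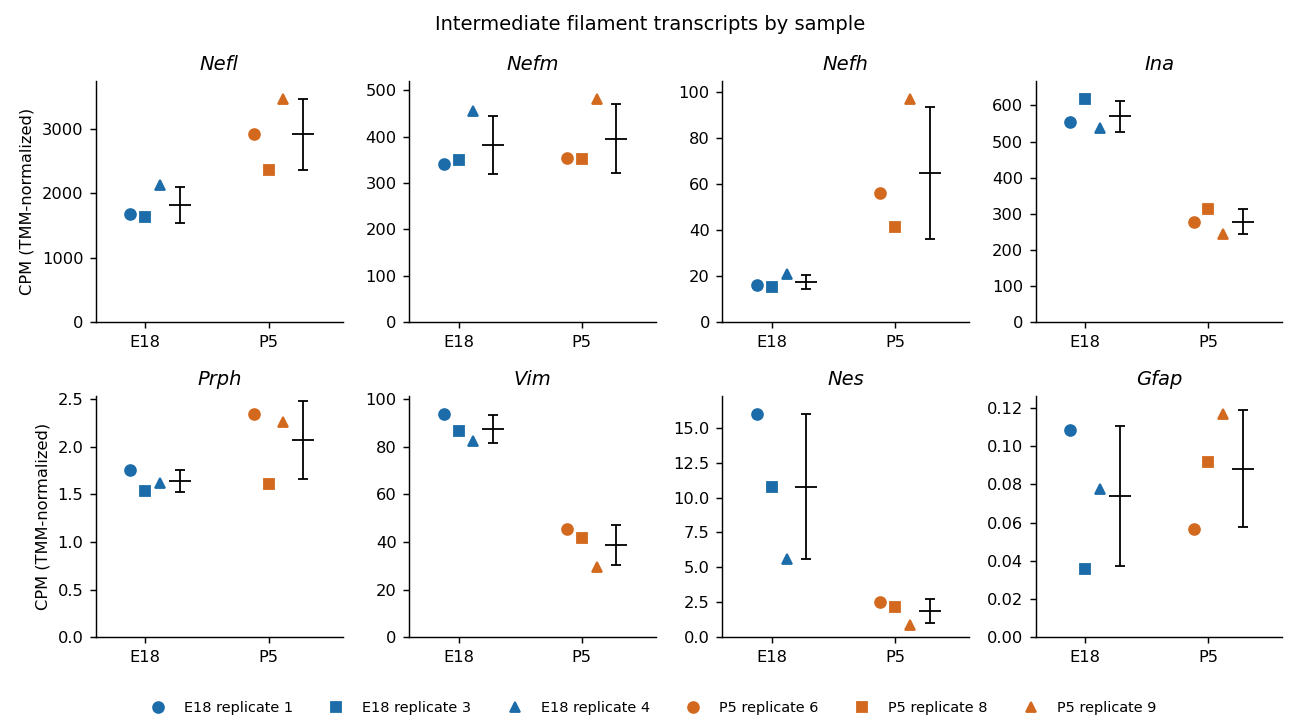
CPM on TMM-normalized library sizes (vertical axis, linear, from 0, a separate scale for each gene) for the 8 genes in the 3 E18 samples (blue) and the 3 P5 samples (orange), with the marker shape giving the replicate and the black bars the mean ± SD of each age. The ages are separate for Nefl, Nefh, Ina, Vim and Nes and overlap for Nefm, Prph and Gfap, whose axis ends near 0.12 CPM.

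The light subunit Nefl (ENSMUSG00000022055.7), the obligate core of the neurofilament, had the most counts of the 8 genes in every sample. The gene lies on the plus strand at chr14:68083863-68089095 (mm10) and has 4 exons. Its level was 1673, 1636 and 2134 CPM in E18 replicates 1, 3 and 4 and 2919, 2361 and 3462 CPM in P5 replicates 6, 8 and 9. The lowest P5 sample was above the highest E18 sample, although E18 replicate 4 and P5 replicate 8 lay close together. Mean levels were 1815 ± 277.4 CPM for E18 and 2914 ± 550.4 CPM for P5 (± SD of 3 samples per age). The fitted log2 fold change was -0.68 (SE 0.154, 95% confidence interval -1.03 to -0.33, adjusted p = 0.00801 in the quasi-likelihood test). With E18 replicate 4 as the lone E18 sample, it was -0.44 and did not pass (adjusted p = 0.182).

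The medium subunit Nefm (ENSMUSG00000022054.11), whose sidearms project from the filament, is a neighbour of Nefl on chromosome 14, on the minus strand (chr14:68082590-68124846, mm10, over all annotated transcripts). It was measured at 341.8, 348.6 and 454.4 CPM at E18 and at 354.3, 350.6 and 480.9 CPM at P5. The ages overlapped, and within each age a single sample, E18 replicate 4 or P5 replicate 9, stood above the rest. The log2 fold change was -0.05 (SE 0.156, adjusted p = 0.813 by the same test), with a 95% confidence interval of -0.40 to 0.30 that still allows a modest change in either direction. Its sign turned when E18 replicate 1, E18 replicate 3 or P5 replicate 9 was left out (0.03, 0.02 and 0.11). A longer annotated Nefm transcript runs across Nefl on the opposite strand, with 1108 of its exon bases inside Nefl exons. The RefSeq-matched Nefm transcript shares 0 bases with them, and because the strand setting of the counting was not stated, reads of the shared stretch could not be assigned with certainty.

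The heavy subunit Nefh (ENSMUSG00000020396.8, minus strand, chr11:4938754-4948064, mm10) carries a long tail of repeated lysine-serine-proline units, the serines of which are phosphorylated in mature axons. In its coding sequence 51 such codon triplets were found among 1090 codons, the first at codon 522 and the last at codon 887. Nefm held 4 among 848 codons and Nes 5 among 1864, and Nefl, Ina, Prph, Vim and Gfap held 0. The repeat is what sets Nefh and, to a lesser extent, Nefm apart from the other subunits, so 60 coding bases of each are shown from the GENCODE transcripts on mm10, written 5′ to 3′ on the coding strand (minus), with the lysine-serine-proline triplets in capitals. The Nefh stretch covers codons 517 to 536 (chr11:4941010-4941069) and the Nefm stretch codons 488 to 507 (chr14:68121063-68121122).
Nefh: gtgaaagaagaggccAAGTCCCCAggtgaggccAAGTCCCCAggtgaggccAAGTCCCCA
Nefm: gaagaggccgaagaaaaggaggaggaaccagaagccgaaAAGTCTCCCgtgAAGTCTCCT

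Nefh, the gene with this dense repeat, was at 16.2, 15.5 and 20.8 CPM in the E18 samples and at 55.9, 41.3 and 96.8 CPM in the P5 samples. Every P5 sample was well above every E18 sample, and P5 replicate 9 was far above the other P5 samples. The means were 17.5 ± 2.89 CPM at E18 and 64.7 ± 28.8 CPM at P5, and the log2 fold change was -1.89 (SE 0.285, adjusted p = 0.00145, 95% confidence interval -2.53 to -1.24). Leaving out any sample gave -2.15 to -1.48, and with E18 replicate 4 alone the value was -1.63 (adjusted p = 0.0303 by the edgeR quasi-likelihood fit). P5 replicate 9 also had the highest levels of Thy1, the panning antigen (690.1 CPM against 499.5 and 469.2 CPM at P5 and 212.4 to 312.0 CPM at E18), and of Slc17a6, the vesicular glutamate transporter of RGCs (938.7 CPM against 761.7 and 530.7 CPM at P5 and 255.7 to 316.0 CPM at E18). Of the 14 RGC markers, P5 replicate 9 was the highest P5 sample for 4 and the lowest for 8, Rbpms (290.5 CPM) and Pou4f2 (183.7 CPM) among the latter. The part of the panning antigen in the filament results was not tested.

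α-Internexin, encoded by Ina (ENSMUSG00000034336.3, plus strand, chr19:47014698-47025327, mm10), moved the other way. Its gene span overlaps that of Nt5c2, a protein-coding gene on the minus strand, and the strand setting of the counting was not stated. Ina was at 553.7, 618.1 and 537.9 CPM at E18 and at 277.3, 314.9 and 244.5 CPM at P5. The groups were far apart relative to their spread, with means of 569.9 ± 42.5 and 278.9 ± 35.2 CPM. The log2 fold change was 1.03 (SE 0.112, adjusted p = 0.000392, 95% confidence interval 0.78 to 1.29), the smallest standard error of the 7 tested genes. With E18 replicate 4 alone it was 0.96 (adjusted p = 0.00869 by the same test).

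Peripherin, encoded by Prph (ENSMUSG00000023484.14, plus strand, chr15:99055174-99058978, mm10), is typical of peripheral neurons and was scarce. It was at 1.76, 1.53 and 1.62 CPM at E18 and at 2.35, 1.61 and 2.26 CPM at P5. P5 replicate 8 lay within the E18 range, so the ages overlapped. The log2 fold change of -0.34 (SE 0.227, 95% confidence interval -0.85 to 0.18) did not pass the test (adjusted p = 0.256 by the edgeR quasi-likelihood fit).

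**Figure D2:**
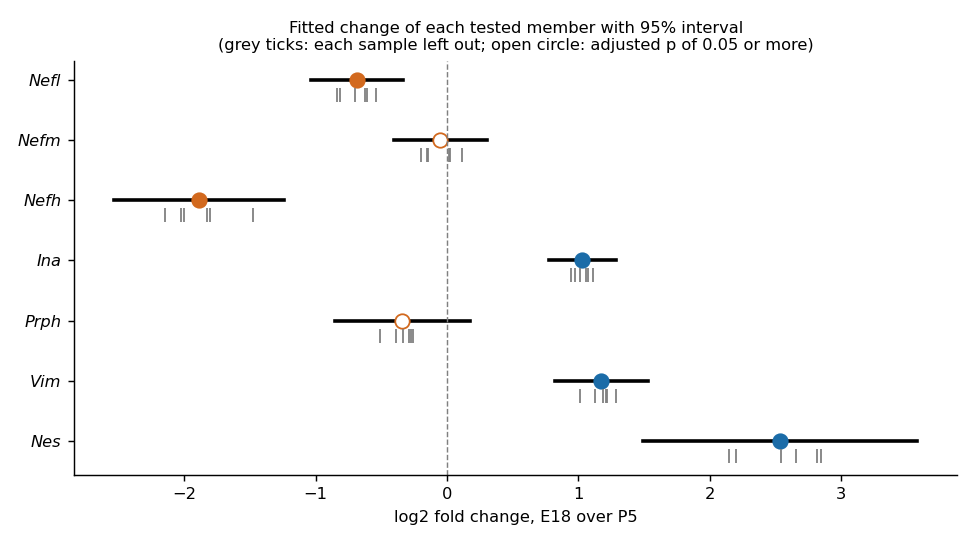
Fitted log2 fold change of E18 over P5 (horizontal axis) for the 7 tested genes, with black lines for the 95% confidence interval, filled circles for an adjusted p under 0.05 and grey ticks for the fits that left out 1 sample. Nefl and Nefh lie left of 0, Ina, Vim and Nes lie right of it, and the intervals of Nefm and Prph cross it.

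The subunits were next set against each other within each sample, where library size cancels. Nefh counts were 0.968%, 0.947% and 0.975% of Nefl counts at E18 and 1.92%, 1.75% and 2.80% at P5. The E18 values were nearly identical, and every P5 value was higher, a 2.19-fold difference of the means on the log2 scale. The ratio of Nefm to Nefl moved in the opposite sense, from 20.4%, 21.3% and 21.3% at E18 to 12.1%, 14.9% and 13.9% at P5, a 1.55-fold difference. Nefm CPM itself overlapped between the ages, whereas Nefl CPM was higher at P5. Relative to Nefl, mean Nefh was thus higher and mean Nefm lower at P5. Ina counts were 33.1%, 37.8% and 25.2% of Nefl counts at E18 and 9.50%, 13.3% and 7.06% at P5, a 3.28-fold difference. None of these ratios overlapped between the ages. For each, the two-sided exact permutation test gave p = 0.1 (adjusted p = 0.1 over 4 ratios), the smallest p that 3 against 3 samples allow, so this test cannot reach 0.05.

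**Figure D3:**
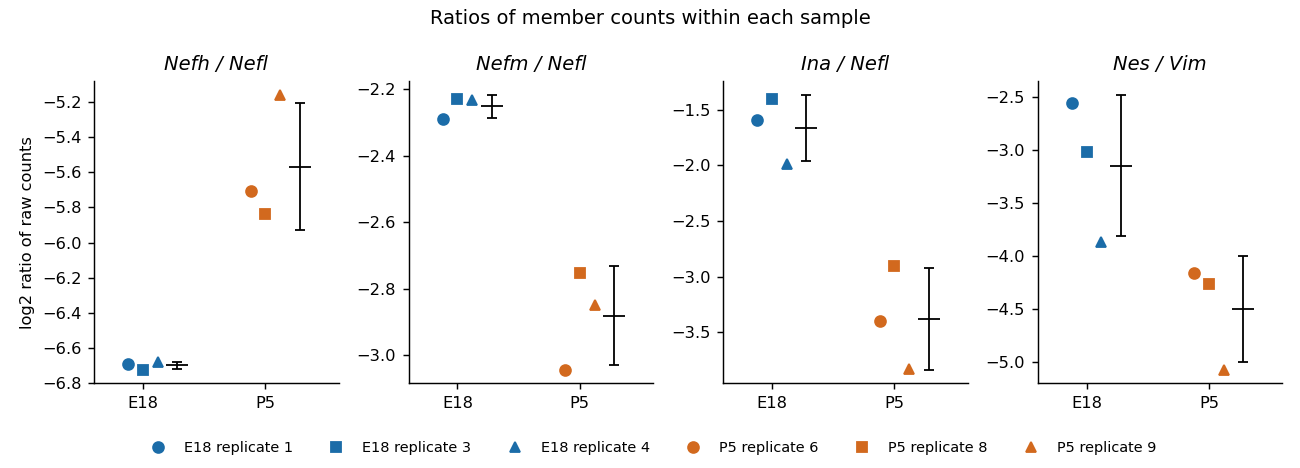
Log2 ratio of raw counts of gene pairs within each sample (vertical axis, not starting at 0), with E18 samples in blue, P5 samples in orange and black bars for the mean ± SD. The Nefh to Nefl ratio sits between -6.72 and -6.68 in the 3 E18 samples and between -5.84 and -5.16 in the 3 P5 samples, and the other ratios are higher at E18.

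Levels of different genes were compared only per length, as CPM per kilobase of annotated exon. At E18 the order was Nefl (536.8 CPM per kilobase), Ina (175.9), Nefm (66.0), Vim (18.5), Nefh (4.38), Nes (1.68), Prph (0.820) and Gfap (0.0175). Neighbours in this order were separate in all samples except Nes and Prph, which overlapped. At P5 the order was Nefl (862.1), Ina (86.1), Nefm (68.4), Nefh (16.2), Vim (8.17), Prph (1.04), Nes (0.289) and Gfap (0.0209), and only Ina and Nefm overlapped. Nefl led at both ages, while Nefh stood below Vim at E18 and above it at P5. Using the length of the RefSeq-matched transcript, which is shorter for Nefm and Vim, Nefm was above Ina at P5 without overlap (118.6 against 86.1 CPM per kilobase), and Vim (17.7) and Nefh (16.2) overlapped. The place of Nefm and Vim among their neighbours at P5 therefore rested on the transcript assumed. The first orders used the union of all GENCODE exons, whereas the counts were made on RefSeq genes.

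As shares of the 5 neuronal subunits on the same per-length scale with RefSeq-matched transcripts, Nefl made up 64.3% ± 2.74 of E18 and 79.3% ± 2.36 of P5 transcripts (± SD of 3 samples per age). Ina made up 21.4% ± 3.39 and 8.20% ± 2.36, Nefm 13.7% ± 0.694 and 10.9% ± 0.882, and Nefh 0.525% ± 0.0297 and 1.45% ± 0.407. The shares of Nefl, Nefh, Ina and Nefm did not overlap between the ages, and Nefh was a minor part at both. Prph was 0.107% and 0.103%. With the union of exons as length, the Nefl share was 68.3% at E18 and 83.2% at P5. These shares have no test of their own.

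**Figure D4:**
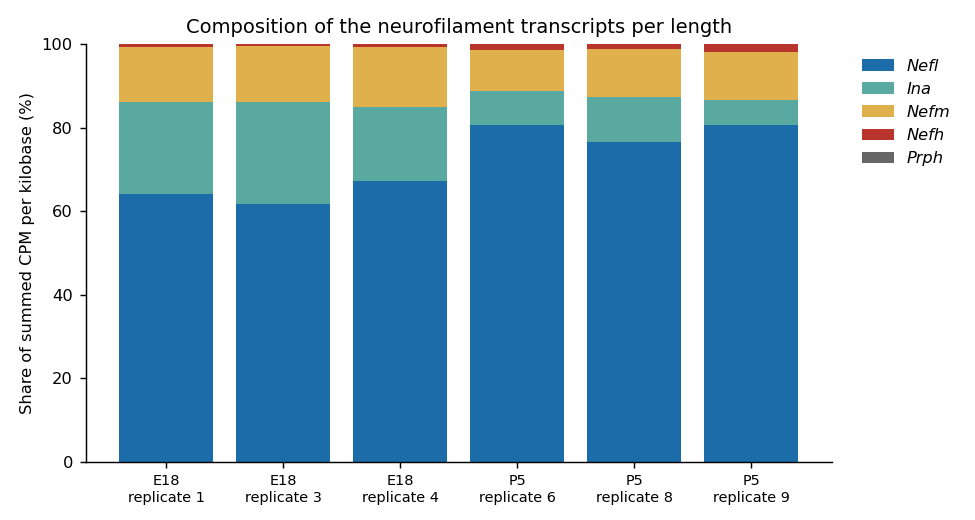
Share (%) of each neuronal subunit in the summed CPM per kilobase of RefSeq-matched transcript, 1 stacked bar per sample. Nefl takes 61.7% to 67.2% of the E18 bars and 76.6% to 80.7% of the P5 bars, Ina 17.7% to 24.3% and 5.95% to 10.7%, and the Prph band is too thin to see.

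Vimentin (Vim, ENSMUSG00000026728.9, plus strand, chr2:13573927-13582826, mm10), a filament of progenitors, glia, endothelium and fibroblasts that growing neurites also use, was at 93.9, 86.8 and 82.2 CPM at E18 and at 45.3, 41.6 and 29.4 CPM at P5. Every E18 sample was well above every P5 sample. The means were 87.6 ± 5.87 and 38.8 ± 8.31 CPM, with a log2 fold change of 1.18 (SE 0.155, adjusted p = 0.000853, 95% confidence interval 0.82 to 1.53). With E18 replicate 4 alone it was 1.10 (adjusted p = 0.0186 by the edgeR quasi-likelihood fit).

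Nestin (Nes, ENSMUSG00000004891.16, plus strand, chr3:87971078-87980451, mm10) was at 16.0, 10.7 and 5.62 CPM in E18 replicates 1, 3 and 4 and at 2.53, 2.16 and 0.872 CPM in P5 replicates 6, 8 and 9. The ages did not overlap, but the E18 samples were spread widely. In CPM, E18 replicate 4 was nearer to the P5 samples than to E18 replicate 1. On the log2 scale this did not hold for P5 replicate 9. The log2 fold change of 2.54 was the largest of the 7 and had the largest error (SE 0.459, adjusted p = 0.00308, 95% confidence interval 1.50 to 3.58). With E18 replicate 4 alone it was 1.61 and did not pass (adjusted p = 0.0518 by the same test). Nes counts were 17.0%, 12.4% and 6.84% of Vim counts at E18 and 5.58%, 5.21% and 2.97% at P5, without overlap, although E18 replicate 4 and P5 replicate 6 lay close together (2.56-fold, exact permutation p = 0.1, adjusted p = 0.1 over the 4 ratios).

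Gfap (ENSMUSG00000020932.14, minus strand, chr11:102887336-102900912, mm10), the filament of astrocytes, was near the floor. It had 9, 4 and 7 counts at E18 and 5, 9 and 11 at P5, or 0.0357 to 0.117 CPM, and it did not pass the filter. With the filter removed, the log2 fold change was -0.28 (adjusted p = 0.762 by the edgeR quasi-likelihood fit), and a difference was not detectable at this level. The span of the Gfap gene overlaps that of a noncoding gene, Gm26668, on the opposite strand.

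Summed markers of progenitors and of dividing cells were higher in every E18 sample than in every P5 sample, as were Vim and Nes. For dividing cells the gap was narrow in E18 replicate 4 (84.0 CPM against at most 82.1 CPM at P5). In E18 replicates 1, 3 and 4 the dividing cell sums were 348.1, 139.7 and 84.0 CPM. Vim was at 93.9, 86.8 and 82.2 CPM and Nes at 16.0, 10.7 and 5.62 CPM in these samples. Of 12 progenitor markers, 6 were called higher at E18 and 0 lower, with sums of 238.5, 187.2 and 128.8 CPM at E18 and 76.3 to 100.6 CPM at P5. Of 14 markers of dividing cells, 9 were called higher and 0 lower. The progenitor factor Sox2 was at 45.7 and 69.3 CPM in E18 replicates 1 and 3 but at 0.950 CPM in E18 replicate 4, within the P5 range of 0.790 to 1.48 CPM. Of the 12 progenitor markers, 6 were above every P5 sample in E18 replicate 4, 3 below every P5 sample and 3 within their range, and Cdon, for example, was at 45.0 CPM there against 20.9 to 34.3 CPM at P5. Of the 14 dividing cell markers, 4 were above, 3 below and 7 within the P5 range in that sample. The proliferation marker Mki67 was at 68.8, 16.2 and 2.84 CPM at E18 and at 0.967 to 4.18 CPM at P5. The part of these cells in the Vim and Nes results was not tested.

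The sum of 13 Müller glia and astrocyte markers was 447.5 to 532.2 CPM at E18 and 487.9 to 525.3 CPM at P5, with 2 called higher at E18 and 3 lower of 12 tested. Glul and Dkk3 (95.1 to 201.2 CPM) were the largest parts of these sums. Glul, the glutamine synthetase of Müller glia, was higher at E18 (312.7 to 326.0 against 230.4 to 272.9 CPM, log2 fold change 0.35, adjusted p = 0.0138 in the quasi-likelihood test). The other gene called higher was Sox9 (log2 fold change 2.32, adjusted p = 0.0294 in the same test), also named after its values were seen. Its level was 1.82, 0.580 and 0.188 CPM at E18 and 0.160 to 0.192 CPM at P5, so the ages overlapped. The 3 called lower at E18 were Clu (log2 fold change -1.19, adjusted p = 0.00282), Dkk3 (-0.59, adjusted p = 0.0187) and Cd44 (-2.32, adjusted p = 0.00393), named after their values were seen. Slc1a3, the glial glutamate transporter, was at 16.2 CPM in E18 replicate 1 and at 0.475 to 2.80 CPM in the other 5 samples, and Aqp4, the water channel of mature glia, was at most 0.410 CPM. Endothelial and pericyte markers summed to 72.8 and 64.6 CPM in E18 replicates 1 and 3 and to 14.7 to 17.9 CPM elsewhere. A single gene, Kdr, made up 69.5 and 62.9 CPM of the former sums, and the endothelial Cdh5 was at most 0.0610 CPM. The endothelial Pecam1 was lower at E18 (0.562 to 0.895 against 2.09 to 2.67 CPM, log2 fold change -1.81, adjusted p = 0.00123). Markers of fibroblasts summed to at most 1.57 CPM and those of microglia to at most 3.04 CPM. Horizontal cells, which also contain neurofilaments, had summed markers of 158.8, 258.6 and 92.8 CPM at E18 and 81.3 to 90.0 CPM at P5. Of these sums, 47.5, 119.2 and 1.62 CPM at E18 came from Tfap2b, which amacrine cells also express. In E18 replicate 4 the largest parts were Onecut2 (44.45 CPM) and Sept4 (26.04 CPM). At P5 they were Sept4 (33.3 to 47.06 CPM) and Onecut2 (19.29 to 29.1 CPM). Lhx1 of that list was at most 0.954 CPM. These genes were named after their values were seen, and the part of horizontal cells in the neurofilament results was not tested. Photoreceptor markers summed to 4.28 to 12.6 CPM, those of bipolar cells to 47.3 to 55.3 CPM at E18 and 70.1 to 99.8 CPM at P5, and those of the oligodendrocyte lineage to 73.8 to 76.7 and 38.0 to 61.3 CPM. A single gene, Prkca, made up 40.7 to 45.6 CPM of the bipolar sums at E18 and 64.8 to 92.2 CPM at P5. Mbp (24.9 to 47.8 CPM) and Mog (6.57 to 23.4 CPM) were the largest parts of the oligodendrocyte sums. Olig1 and Sox10 of that list were at most 0.237 and 0.110 CPM.

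**Figure D5:**
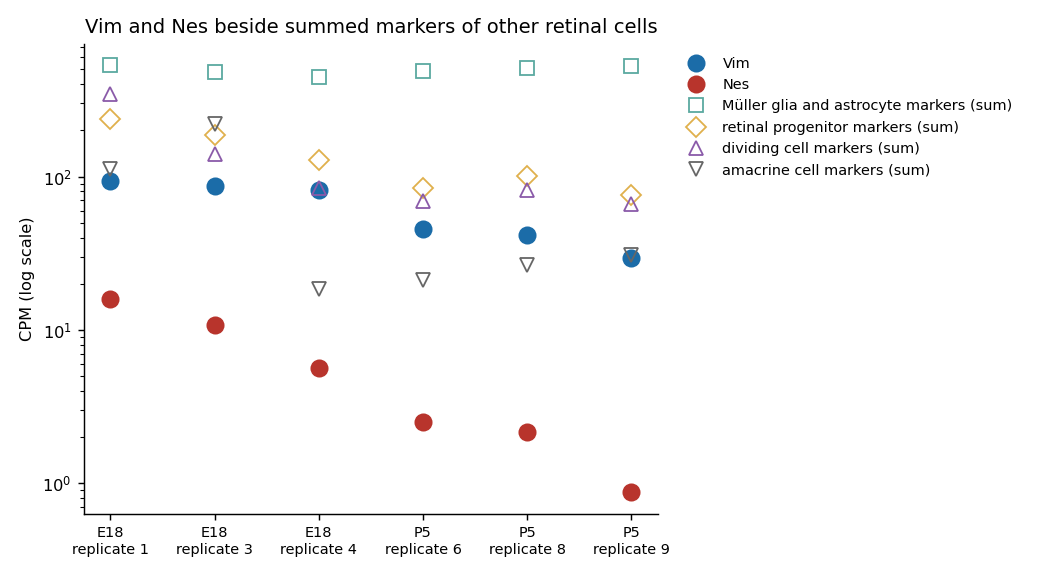
CPM on a log axis for Vim and Nes (filled circles) and for the summed markers of Müller glia with astrocytes, progenitors, dividing cells and amacrine cells (open symbols) in each of the 6 samples. In E18 replicate 4 the summed markers are at 128.8 CPM for progenitors, above the P5 samples, and at 84.0 CPM for dividing and 18.5 CPM for amacrine cells, near the P5 samples, with Vim at 82.2 CPM and Nes at 5.62 CPM.

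Start-site sequence was compared among the genes higher at E18. RefSeq promoter entries (GRCm38.p6, 250 bases before to 50 bases after the start site) were matched for 5 of the 8 genes, namely Ina, Prph, Vim, Nes and Gfap. The last 60 bases before the start site are shown for Vim (chr2:13574251-13574310, plus strand), Nes (chr3:87971033-87971092, plus strand) and Ina (chr19:47014621-47014680, plus strand). These genes were chosen because each was called higher at E18, and any TATAAA is in capitals.
Vim: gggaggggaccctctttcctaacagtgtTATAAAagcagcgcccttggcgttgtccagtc
Nes: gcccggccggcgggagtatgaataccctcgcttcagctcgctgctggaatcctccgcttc
Ina: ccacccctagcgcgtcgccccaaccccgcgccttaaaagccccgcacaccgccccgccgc

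The letters TATAAA, searched on both strands, occurred in the promoters of Vim, starting 32 bases before the start site, and of Prph, starting 31 bases before it, and in 13.6% of all 32851 promoter entries. The letters CCGGAAG, the core of the Elk-1 motif, occurred in none of the 5 promoters and in 8.86% of all entries. The 250 bases upstream had a GC content of 70.8% with 25 CpG in Ina, 58.8% with 15 in Nes and 58.4% with 8 in Vim. These matches describe the letters in the window only.

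Of 17 other intermediate filament genes, 10 were tested, 1 was higher at E18 and 1 lower, 8 stayed under 1 CPM in every sample, and the median log2 fold change was 0.13. Lmnb1, encoding lamin B1 of the nuclear lamina, was at 76.6, 81.8 and 68.9 CPM at E18 and at 29.6, 47.0 and 20.9 CPM at P5 (log2 fold change 1.22, SE 0.251, adjusted p = 0.00541). Sync, encoding syncoilin, was at 5.86 to 6.31 CPM at E18 and 7.83 to 12.1 CPM at P5 (log2 fold change -0.75, adjusted p = 0.00997). Neither gene overlapped between the ages.

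Of 9 genes of kinases, their regulators and a phosphatase that act on neurofilament tails, all tested, 2 were higher at E18, 3 lower and 4 did not pass, with a median of -0.23. Cdk5r1 and Cdk5r2 encode p35 and p39, the activators of the tail kinase Cdk5. Cdk5r1 was higher at E18 (535.2 to 571.9 against 348.9 to 458.2 CPM, log2 fold change 0.49, adjusted p = 0.00780), and Cdk5r2 was lower (11.8 to 19.9 against 22.6 to 30.2 CPM, log2 fold change -0.81, adjusted p = 0.0138). The glycogen synthase kinase genes Gsk3b (log2 fold change 0.33, adjusted p = 0.0168) and Gsk3a (log2 fold change -0.25, adjusted p = 0.0478) had opposite signs. Ppp2ca, the catalytic subunit of the phosphatase PP2A, was at 557.8 to 652.0 CPM and did not pass (log2 fold change -0.09, adjusted p = 0.396). The Cdk5r2 call was lost without E18 replicate 3 (adjusted p = 0.0537). That of Gsk3b was lost without E18 replicate 1 (0.0714), E18 replicate 3 (0.0635) or P5 replicate 6 (0.0586), and that of Gsk3a without E18 replicate 1 (0.198), E18 replicate 3 (0.163), E18 replicate 4 (0.0628) or P5 replicate 9 (0.0912) and with no filter (0.0799).

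Among 8 linkers and motors, all tested, 2 were higher at E18 and 3 lower, with a median of -0.18. The heavy chains of kinesin-1, which carries filaments along the axon, differed in sign. Kif5b was lower at E18 (278.3 to 296.5 against 400.1 to 422.8 CPM, log2 fold change -0.52, adjusted p = 0.00137), as was the neuronal Kif5a (1096 to 1315 against 1472 to 1732 CPM, log2 fold change -0.46, adjusted p = 0.00823), and Kif5c was higher (1817 to 2178 against 1536 to 1701 CPM, log2 fold change 0.29, adjusted p = 0.0309). The retrograde motor Dync1h1 was higher at E18 (log2 fold change 0.37, adjusted p = 0.0130), and Myo5a, a myosin that binds neurofilaments, was lower (log2 fold change -0.46, adjusted p = 0.00446). The cross-linkers Macf1 (1214 to 1617 CPM), Dst (776.9 to 1004 CPM) and Plec (111.5 to 161.2 CPM) did not pass and overlapped between the ages. The call of Dync1h1 was lost without E18 replicate 3 (adjusted p = 0.0576) and that of Kif5c without E18 replicate 3 (0.126), E18 replicate 4 (0.0643), P5 replicate 6 (0.0777) or P5 replicate 9 (0.0767).

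Of 8 genes of filament turnover and folding, 7 were tested, 1 was higher at E18 and 1 lower, with a median of -0.02. The small heat shock protein gene Hspb1, whose product binds neurofilaments, was at 2.17, 1.56 and 1.73 CPM at E18 and at 30.5, 14.4 and 42.7 CPM at P5. The log2 fold change of Hspb1 was -4.01 (SE 0.378, adjusted p = 0.000248 in the quasi-likelihood test). Within P5 its order over the samples was that of Nefl and Nefh, highest in replicate 9 and lowest in replicate 8. This order was not particular to them, since Thy1, Slc17a6, Clu and Prkca shared it, whereas Rbpms and Pou4f2 did not. Tardbp, whose product TDP-43 binds Nefl mRNA, was higher at E18 (252.3 to 277.0 against 140.1 to 155.1 CPM, log2 fold change 0.83, adjusted p = 0.000338). Trim2, a ubiquitin ligase for Nefl, was at 548.3 to 666.7 CPM and did not pass (log2 fold change 0.11, adjusted p = 0.362). Of the other filament, kinase, motor and turnover genes called in all samples, only Hspb1 and Tardbp were called with E18 replicate 4 as the lone E18 sample.

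Genes with the closest pattern to each subunit were found by the root mean square difference of centred log2 CPM over the 6 samples, among the tested genes whose mean level was 10 CPM or more. For Nefl they were Gpr61 (0.0398), Slc6a11 (0.0446) and D130043K22Rik (0.0587), and for Nefm they were Kcnab2 (0.0611), Enthd2 (0.0773) and Lrsam1 (0.0811). For Nefh they were Slc12a5 (0.0955), Eno2 (0.126) and Arhgef4 (0.147). Ina was closest to Kctd15 (0.0350), Myh9 (0.0532) and 5031425E22Rik (0.0558), and Prph to Lamtor4 (0.0420), Mrps16 (0.0481) and Vps25 (0.0483). Vim was closest to Slc18b1 (0.0708), Gng5 (0.0732) and Yod1 (0.0788). Nes had no neighbour as close, with Hist1h1a (0.255), Hmgb2 (0.278) and Fbn2 (0.312). These distances describe 6 samples that share their libraries and have no test.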

How the data were processed

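RNA from 6 immunopanned RGC samples, 3 at E18 and 3 at P5, was measured by sequencing. Samples were grouped by the age in their labels. The methods name ribosomal depletion, whereas the labels name polyA RNA. The authors aligned 100-base reads to mm10 with STAR 2.4.0 and deposited raw counts on RefSeq genes from HT-seq 0.6.1, and the labels also list CASAVA 1.8.2. The authors also deposited normalized counts, a signal scaled for library size, which were not used. The log2 fold changes and p-values deposited by the authors from EdgeR, and a rank, were not used either. The number of per-sample columns left unmapped was 0. The strand setting and the handling of multiply mapped reads were not given in the sources used here.

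Counts were tested in R 4.3.3 by edgeR 4.0.16 (glmQLFit and glmQLFTest, its quasi-likelihood test) on TMM-normalized library sizes after its expression filter, on age alone, with Benjamini-Hochberg adjustment over 16449 genes and a threshold of 0.05. The scripts were tested on simulated data. Samples of one age differed by more than sampling noise (chi-square per degree of freedom 30.5 to 141.3), so none were merged, and the spread between samples, rather than depth, sets the precision. Ratios of raw counts were tested by exact permutation over samples. Gene positions and lengths were looked up by symbol in GENCODE for mm10.

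The members, gene lists and marker lists were chosen with earlier results of these data known. Named genes are the 8 members, 10 markers, up to 5 called, non-overlapping genes per direction in each partner list, partners whose mean reached 100 CPM, and the 3 closest genes to each tested member whose mean reached 1 CPM. Alternatives were DESeq2 1.42.0, edgeR's likelihood ratio and exact tests, other normalizations and filters, and the omission of each sample. The values of some single genes are left out here.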

Additional observations from a re-analysis of the deposited data

How the results depend on the processing

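The calls of Nefl, Nefh, Ina, Vim and Nes and the sign of all 4 ratios held under every planned setting, with log2 fold changes of -0.83 to -0.54, -2.15 to -1.48, 0.94 to 1.11, 1.01 to 1.29 and 2.15 to 2.85 when samples were left out. The number of genes called ranged from 4575 (without E18 replicate 3) to 8796 (without P5 replicate 8), against 7135 in all samples. Nefm ranged from -0.19 to 0.11 and never passed, and its sign turned without E18 replicate 1 (0.03), E18 replicate 3 (0.02) and P5 replicate 9 (0.11). The sign of Macf1, also never past the threshold, turned without E18 replicate 4 (range -0.15 to 0.05 with samples left out, 0.047 without that sample). The cause was not tested. A comparison of E18 replicate 4 alone with P5, added after the data were seen because E18 replicates 1 and 3 had more transcript of dividing and amacrine cell markers, assumes that the lone sample varies like the P5 samples. It called 1633 genes and 3 of the 7 tested members (2 higher at E18, 1 lower), with Nefl at -0.44 and Nes at 1.61 no longer past the threshold and Nefm at 0.21. Of the called partner genes, only Tardbp and Hspb1 kept their calls there. In the level order, 14 of 16 places were kept with the longest transcript and 12 of 16 with the RefSeq-matched transcript, also added after the data were seen. Gfap entered only fits whose filter admitted it. No paired analysis was possible because the ages share no replicate numbers.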
